A study of Mus musculus with 22 samples.

Results

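The CosMx panel used on sections of mouse embryos held genes that dividing cells transcribe, and 9 of them were read here across classes of embryonic cells. The 9 genes are Pcna, Tyms, Mki67, Top2a, Cenpf, Birc5, Hmgb2, Ezh2 and Stmn1. They were named as a list and looked up among the 998 genes of the deposited tables, where 9 of 9 were found. The rule uses no measured value, although the list was drawn up with earlier results of these data known. Cells were sorted by their own counts into a Cdh5 gate (3 or more Cdh5 transcripts), a hemoglobin gate (10% or more of the transcripts of the cell), a Tagln and Acta2 gate (4 or more transcripts of the pair) and a Twist1 gate (4 or more), and the remaining cells are called other cells.

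CosMx counts single RNA molecules inside segmented cells of a tissue section. The sections ran along the region of the aorta, gonads and mesonephros and came from 2 embryos at E10, 1 labelled Knockout, which the study describes as Nr4a1-/-Nr4a2-/- (germline alleles of these orphan nuclear receptors, backcrossed to C57BL/6J), and 1 labelled Wildtype (Nr4a1+/+Nr4a2+/+). There were 13 sections labelled Knockout and 9 labelled Wildtype, while a legend of the study gives more sections to the wild type embryo than to the mutant, so the direction of each difference between the embryos rests on the labels. Since 1 embryo gave all sections of a label, every test between the labels compares 2 embryos, and its p-value measures the spread between sections.

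Cells must copy their DNA once and then divide it before each division, and the genes that serve these steps are switched on in waves. Pcna, the sliding clamp of DNA polymerases, and Tyms, the enzyme that makes thymidylate, serve DNA synthesis. Mki67, which coats mitotic chromosomes and whose product is the Ki-67 antigen, Top2a, the enzyme that untangles DNA strands, Cenpf, a kinetochore protein, and Birc5, the survivin subunit of the chromosomal passenger complex, rise towards mitosis. Hmgb2, a DNA-bending chromatin protein, Ezh2, the methyltransferase of Polycomb complex PRC2, and Stmn1, which destabilizes microtubules, are abundant in growing embryonic tissue and in dividing cells.

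Of 37575 cells in the tables, 37570 reached 10 transcripts and 10 detected genes. The gates held 1201 (Cdh5), 1734 (hemoglobin), 995 (Tagln and Acta2) and 3895 (Twist1) cells, 28908 cells met no gate and 837 met more than 1 and were held out. Section totals ranged from 169027 to 887896 transcripts. Numbers 1 and 2 in the file names may mark a slide. Each label holds both numbers but the methods put the embryos on separate slides, so the spread between numbers of an embryo can be seen, while a slide effect shared by one label and the embryo cannot be told apart. Between sections, 3410 cell names recur because the numbering restarts, but no cell's counts occurred in more than 1 section. The genotype labels were checked with the targeted genes: Nr4a1 differed between the labels by a log2 fold change of -0.05 (SE 0.07) and Nr4a2 by 0.03 (SE 0.09), with adjusted p = 0.716 and 0.860 (edgeR, quasi-likelihood test), so the counts of these genes do not separate the groups and "Knockout" below means the label. Nr4a1 (2434 transcripts in all sections) and Nr4a2 (4357) had few counts for this panel, so this check of the labels is weak.

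The gates were checked against markers that did not define them. In the Cdh5 gate 10 of 10 endothelial markers were higher than in other cells, 6 of them at least 2-fold. In the hemoglobin gate 2 of 4 erythroid and hematopoietic markers were at least 2-fold higher, and 6 of 6 macrophage markers were also higher (summed 42.6 against 31.7 transcripts per 10000, with section ranges of 28.0 to 55.6 and 25.0 to 46.3). In the same gate 10 of 10 endothelial markers were higher too, none of them 2-fold (summed 111 against 80.6). Changes in this gate went with abundance. The median log2 fold change was -0.35 over the top 198 genes by transcripts, and from 0.03 to 0.13 in the groups of genes with fewer transcripts. The part of abundance in these marker differences was not tested. In the Tagln and Acta2 gate 7 of 7 smooth muscle markers were higher, 3 of them at least 2-fold, with 6 of 9 mesenchyme and 4 of 4 cardiac markers also higher. No mesenchyme marker was 2-fold higher in the Twist1 gate (5 of 9 were higher), so each group of cells is called by its gate. The part of cells of other types in the results of a gate was not tested.

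Upstream sequence is shown for 3 genes: Mki67, Top2a and Hmgb2. In each gate below Top2a and Hmgb2 went the same way, while Mki67 was higher in the hemoglobin gate, where both were lower. Each run is the 250 bases before the RefSeq start of the gene in GRCm38.p6, 5′ to 3′ on the strand of the gene, with matches to 3 motifs of cell cycle promoters in capitals on either strand. The motifs are the CHR element, which was read as the letters TTTGAA and also in the form spelled TTCGAA, the CCAAT box, which was read as those same letters, and an E2F site, which was searched for as TTGGCGC and besides that with the spelling TTCGCGC and as well with the spelling TTCCCGC. They lie at chr7:135716380-135716629 (minus strand), chr11:99024190-99024439 (minus strand) and chr8:57511593-57511842 (plus strand).
Mki67: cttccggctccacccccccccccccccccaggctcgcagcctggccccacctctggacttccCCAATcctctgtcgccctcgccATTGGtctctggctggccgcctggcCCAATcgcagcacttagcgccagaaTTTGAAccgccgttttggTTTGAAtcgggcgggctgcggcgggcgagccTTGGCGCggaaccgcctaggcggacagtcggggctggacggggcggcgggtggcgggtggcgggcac
Top2a: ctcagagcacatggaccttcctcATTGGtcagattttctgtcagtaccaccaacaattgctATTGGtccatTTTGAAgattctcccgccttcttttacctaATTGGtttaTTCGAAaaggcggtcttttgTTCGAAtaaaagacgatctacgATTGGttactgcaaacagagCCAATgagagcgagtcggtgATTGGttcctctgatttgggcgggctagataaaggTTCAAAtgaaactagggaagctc
Hmgb2: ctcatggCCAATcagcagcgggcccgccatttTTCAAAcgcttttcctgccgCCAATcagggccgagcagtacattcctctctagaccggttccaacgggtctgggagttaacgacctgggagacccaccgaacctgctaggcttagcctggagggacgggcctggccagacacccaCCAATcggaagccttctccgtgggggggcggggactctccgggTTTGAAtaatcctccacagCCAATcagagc

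RefSeq start windows of 300 bases (250 before and 50 after the start) were at hand for 8 of the 9 genes, Stmn1 being the exception. The CHR letters lay in 4 of the 8 (Cenpf, Mki67, Hmgb2 and Top2a) and in 19.2% of the 32851 windows of the genome. CCAAT lay in 6 of the 8 (Cenpf, Pcna, Ezh2, Mki67, Hmgb2 and Top2a) and in 37.4% of all windows, and an E2F site in 2 of the 8 (Ezh2 and Mki67) and in 8.07%. TTCGAA is its own reverse complement, so each of its 2 places in the Top2a run was read on both strands. These matches describe letters and were not related to the counts.

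The first question was how far the genes differ between classes of cells in the same section. The strongest contrast lay in the hemoglobin gate, where Mki67 was higher and Stmn1, Hmgb2, Ezh2 and Top2a were lower than in other cells, so the genes did not move as a unit. In the Tagln and Acta2 gate 6 of the 9 genes were lower, in the Cdh5 gate 5 were lower, and in the Twist1 gate 4 were higher. Tyms did not pass the test in any gate, with log2 fold changes between -0.04 and 0.08. The median log2 fold change of the 9 genes was -0.37 in the hemoglobin gate (0.05 over all genes tested), -0.32 in the Tagln and Acta2 gate (-0.01), -0.21 in the Cdh5 gate (-0.02) and 0.14 in the Twist1 gate (0.01). Rates are given as transcripts per 10000 of the 992 genes that are not gate genes, and the 4 gates are set against the same other cells, so the comparisons share these controls.

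**Figure D1:**
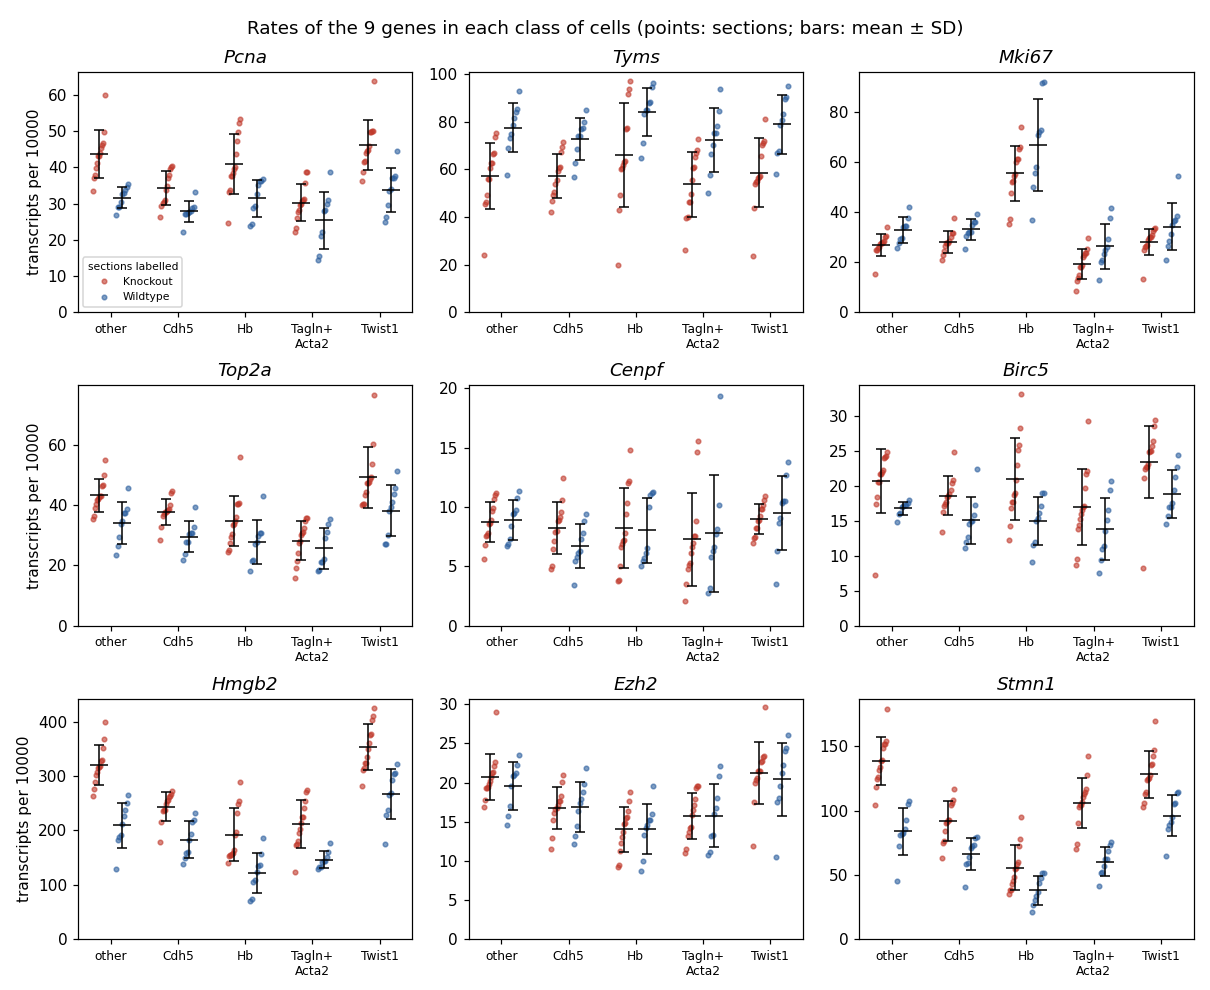
Rate of each gene (y axis, transcripts per 10000) in 5 classes of cells (x axis; Hb, hemoglobin gate), with 1 point per section, red for sections labelled Knockout and blue for Wildtype, and bars for the mean ± SD. Mki67 is highest in the hemoglobin gate, and Stmn1 is lowest there.

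Mki67 in the hemoglobin gate ranged over sections from 35.1 through a median of 59.1 to 92.1 transcripts per 10000, against 15.1, 28.3 and 42.3 in other cells. The ranges overlap, but within a section the gate was above the other cells in 22 of 22 sections. The log2 fold change was 0.85 (SE 0.08, edgeR with section as a block, adjusted p = 1.80e-16). At equal depth, with each cell thinned to 100 transcripts, 41.8% ± 8.6 (SD, n = 22 sections) of hemoglobin-gated cells kept a Mki67 transcript against 23.0% ± 3.4 of other cells, and unthinned shares were 53.9% and 32.4%. The median depth of a cell, gate genes left out, was 185.5 transcripts in this gate and 144 in other cells.

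The other 3 genes of chromosomes and mitosis did not follow Mki67 there. Top2a spanned 18.2, 30.6 and 56.02 transcripts per 10000 (lowest, median, highest section) in the hemoglobin gate and 23.4, 39.6 and 54.9 in other cells. It was lower in the gate in 18 of 22 sections by edgeR's log2 fold change of -0.51 (SE 0.09, adjusted p = 8.47e-07). Cenpf (-0.37, SE 0.11, adjusted p = 0.00420) and Birc5 (-0.23, SE 0.08, adjusted p = 0.0238) were lower too, although their rates in the gate were higher in 10 (Cenpf) and 9 (Birc5) of 22 sections. With library size alone neither was called (-0.19 and -0.05), and Birc5 lost its call without Knockout section 1, 7 or 11 (adjusted p from 0.0507 to 0.0602). The number of Mki67 transcripts per Top2a transcript was 2.06 ± 0.92 (SD, n = 22 sections) in the hemoglobin gate and 0.775 ± 0.218 in other cells, and between 0.738 and 0.924 on average in the other 3 gates.

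Stmn1 had the widest fall of the 9 genes in the hemoglobin gate. Its rate spanned 21.4, 46.3 and 94.95 transcripts per 10000 in the gate and 45.4, 121.7 and 179.2 in other cells, and the gate was lower in 22 of 22 sections. The log2 fold change was -1.47 (SE 0.10, adjusted p = 5.55e-28 in edgeR's test). Hmgb2 fell by 0.96 on the log2 scale (SE 0.09, adjusted p = 1.33e-17), from a median of 283.0 to 155.8 transcripts per 10000, and Ezh2 fell by 0.76 (SE 0.09, adjusted p = 2.50e-12). The share of cells with Stmn1 after thinning was 32.6% ± 9.4 in the gate and 60.3% ± 10.4 in other cells (SD, n = 22 sections).

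Of the 2 replication genes, Pcna was 37.0 ± 8.5 transcripts per 10000 in the hemoglobin gate and 38.8 ± 8.1 in other cells (SD, n = 22 sections), a log2 fold change of -0.24 (SE 0.09, adjusted p = 0.0163) that was no longer called in cells with 200 or more transcripts (-0.20) or with library size alone (-0.07). Tyms was 73.5 ± 19.8 and 65.6 ± 15.9, a log2 fold change of -0.02 (95% interval -0.18 to 0.15). Its rate was higher in the gate in 17 of 22 sections, and library size alone gave 0.15 (adjusted p = 0.0597), so the sign of Tyms depends on the scaling. Of the 9 genes, 7 were therefore lower and 1 higher in this gate, where 39.6% of the 992 genes tested were called, 20.1% lower and 19.6% higher. Among the 100 panel genes with the most transcripts, which include 8 of the 9, 73% were lower, so the share of the 9 genes that fell is near that of genes of like abundance, and Mki67 was among the 9% that were higher.

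**Figure D2:**
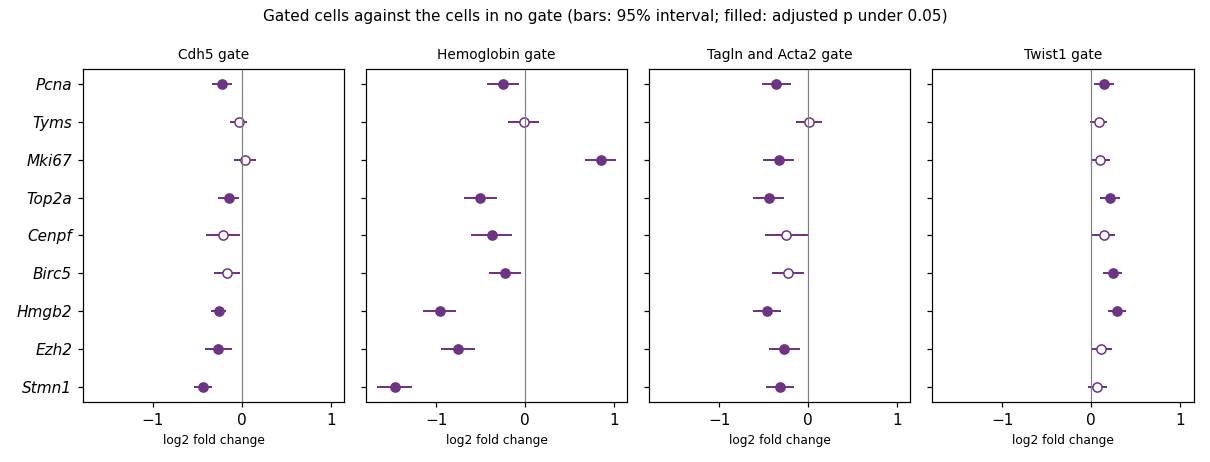
Log2 fold change (x axis) of each gene (y axis) in each gate against other cells of the same sections, with 95% intervals and filled points for an adjusted p under 0.05. Stmn1 lies at -1.47 and Mki67 at 0.85 in the hemoglobin gate, and the Twist1 gate has values from 0.07 to 0.29.

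In the Cdh5 gate, 5 of the 9 genes were lower than in other cells (21.1% of 992 genes called, 10.3% lower, and 37% lower among the 100 genes with the most transcripts). Stmn1 spanned 40.6, 78.6 and 116.5 transcripts per 10000 in the gate over 21 sections, below the other cells of its section in 21 of 21, at a log2 fold change of -0.44 (SE 0.04, adjusted p = 6.11e-15 in edgeR's test). Ezh2 (-0.27), Hmgb2 (-0.26), Pcna (-0.23) and Top2a (-0.15) were also lower, although the call of Top2a was lost without Knockout section 9 or 10 or Wildtype section 14 or 16 (adjusted p from 0.0617 to 0.108). Mki67 (0.03) and Tyms (-0.04) did not pass, nor did Birc5 (-0.17, adjusted p = 0.0561) and Cenpf (-0.21, adjusted p = 0.101), though Birc5 passed without Knockout section 5 or 8 or Wildtype section 15 (adjusted p from 0.0161 to 0.0427). Gated cells were deeper than other cells (median 404 against 144 transcripts), and when the comparison was held to cells with 200 or more transcripts, a limit added after the data were seen, Stmn1 alone of the 9 was called (-0.25). In the Wildtype sections alone Stmn1 was again the 1 gene called (-0.27).

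The Tagln and Acta2 gate had the lowest mean rate of the 5 classes for 6 of the 9 genes (Mki67, Top2a, Pcna, Tyms, Cenpf and Birc5), although neighbours in that order were mostly within 1 SD of each other. The 6 genes called in this gate were lower than in other cells (12.7% of 991 genes called, 5.05% lower, and 27% lower among the 100 genes with the most transcripts). Top2a spanned 15.8, 28.7 and 35.9 transcripts per 10000 and was lower in 21 of 22 sections (log2 fold change -0.44, SE 0.08, adjusted p = 2.57e-05 in edgeR's test). Hmgb2 (-0.46), Pcna (-0.36), Mki67 (-0.33), Stmn1 (-0.32) and Ezh2 (-0.27) were lower as well, while Birc5 (-0.23, adjusted p = 0.0692) and Cenpf (-0.25, adjusted p = 0.176) did not pass, though Cenpf did without Wildtype section 17 (adjusted p = 0.0265) and Birc5 without Wildtype section 17, 21 or 22 (adjusted p from 0.0186 to 0.0491). In the 9 Wildtype sections alone 0 of the 9 genes were called by edgeR (3 at an unadjusted p under 0.05, with no other tool run on them), with log2 fold changes from -0.33 to 0.05. Held to cells with 200 or more transcripts, 4 were called.

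In the Twist1 gate the 4 genes called were higher (10.6% of 992 genes called, 5.54% higher and 5.04% lower, and 30% higher among the 100 genes with the most transcripts). Hmgb2 spanned 175.5, 318.4 and 424.1 transcripts per 10000 in the gate against 128.7, 283.0 and 398.5 in other cells, and was higher in 21 of 22 sections (log2 fold change 0.29, SE 0.04, adjusted p = 9.03e-07 in edgeR's test). Birc5 (0.24, adjusted p = 0.000216), Top2a (0.21, adjusted p = 0.00143) and Pcna (0.15, adjusted p = 0.0435) were also higher, and the call of Pcna was lost in 12 of 22 fits that left out 1 section (adjusted p from 0.0501 to 0.112). In cells with 200 or more transcripts 7 of the 9 were called and higher, Mki67 (0.12) and Tyms (0.02) being the exceptions. After thinning, 93.1% ± 3.6 of Twist1-gated cells and 86.2% ± 6.5 of other cells kept Hmgb2, and 34.0% ± 6.7 and 29.7% ± 4.2 kept Top2a (SD, n = 22 sections).

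Across the 5 classes, Mki67, Stmn1 and Hmgb2 varied most, with the highest mean rate 2.72, 2.40 and 1.95 times the lowest. The order for Mki67 was hemoglobin, Twist1, Cdh5, other, and Tagln and Acta2, and the first stood above the next by more than 1 SD (60.2 ± 15.2 against 30.7 ± 7.7, n = 22 sections). For Stmn1 it was other, Twist1, Tagln and Acta2, Cdh5, and hemoglobin, with the last below its neighbour by more than 1 SD (48.3 ± 17.4, n = 22, against 80.9 ± 18.9, n = 21). Ezh2 ran from 20.9 ± 4.2 (Twist1) to 14.04 ± 2.97 (hemoglobin), with other cells above the Cdh5 gate by more than 1 SD. For Top2a, Pcna, Tyms, Hmgb2, Cenpf and Birc5 each neighbour in the order was within 1 SD. Tyms (1.20 times) and Cenpf (1.22 times) were the flattest.

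Other cell cycle genes of the panel were read beside the 9. Of 4 mitotic genes (Nusap1, Ube2c, Cdkn3 and Pttg1), 10 replication and repair genes and 5 regulators, the hemoglobin gate had 1, 5 and 1 lower and 0, 1 and 1 higher. In this gate 20.1% of all genes tested were lower and 19.6% higher. Of the top 198 genes by transcripts 60.1% were lower and 14.1% higher there, so these counts do not stand out from abundant genes. Myc, the transcription factor of growth, was higher there by 1.00 on the log2 scale (SE 0.09, adjusted p = 2.39e-19 in edgeR's test). Parp1, a DNA repair enzyme, was lower by a log2 fold change of -0.93 (SE 0.09, adjusted p = 1.07e-15), and Ccnd1, the cyclin of G1 entry, by one of -0.67 (SE 0.10, adjusted p = 2.85e-09).

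In the Tagln and Acta2 gate 2 mitotic, 4 replication and repair and 3 regulator genes were lower, and 1 regulator was higher, where 5.05% of all genes tested were lower and 7.67% higher. Of the top 198 genes by transcripts 18.2% were lower and 19.7% higher. The regulator that was higher was Cdkn1a, the p21 inhibitor of cyclin-dependent kinases, with a log2 fold change of 1.22 (SE 0.26, adjusted p = 0.00167 in edgeR's test). In the Twist1 gate Myc (0.42), H2az1, a histone variant (0.24), and Dnmt1, the maintenance DNA methyltransferase (0.15), were higher and Cdkn1a was lower (-0.26, adjusted p = 0.00293). There 5.54% of all genes tested were higher and 5.04% lower, and 22.2% and 9.09% of the top 198 by transcripts. In the Cdh5 gate Parp1 (-0.25, adjusted p = 0.00632) was the 1 gene of the 19 called, where 21.1% of all genes tested were called and 10.3% were lower.

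The second question was whether the 9 genes differ between the embryos. Summed over all cells of a section, 6 of the 9 were higher in the sections labelled Knockout: Stmn1, Hmgb2, Pcna, Top2a, Birc5 and Ezh2. Cenpf (0.24, adjusted p = 0.133), Mki67 (0.01, adjusted p = 0.964) and Tyms (-0.16, adjusted p = 0.463) did not pass. Of the 998 genes tested 12.5% were called, 9.82% higher and 2.71% lower, and the median log2 fold change was 0.58 over the 9 genes and -0.03 over all genes. In such sums more cells of a kind and more transcripts per cell cannot be told apart. The Twist1 gate held 12.9% of the cells in sections labelled Knockout and 7.14% in Wildtype, and its part in the result was not tested.

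Abundance has to be read beside this count. Calls were concentrated in the genes with the most transcripts: in the top 199 genes by transcripts (8 of the 9 among them) 39.7% were higher, in the next 200 genes 6% and in the lowest 200 genes 1%. Among the 100 genes with the most transcripts 59% were higher and 0% lower, with a median log2 fold change of 0.45. The share of the 9 genes that was higher is thus close to that of genes of like abundance, and Mki67 and Tyms lie below most of them. The part of abundance in the difference between the embryos was not tested.

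**Figure D3:**
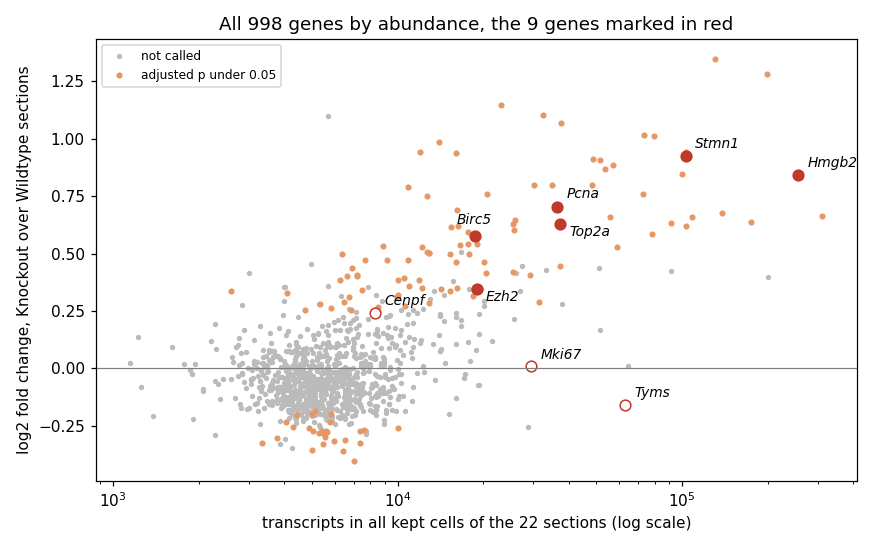
Log2 fold change of the sections labelled Knockout over Wildtype (y axis) against the transcripts of each of 998 genes in all kept cells (x axis, log scale), orange where the adjusted p was under 0.05 and the 9 genes in red, filled where called. Changes are larger at higher abundance, and Mki67 (0.01) and Tyms (-0.16) lie near 0 among abundant genes.

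Stmn1 spanned 102.8, 127.9 and 165.3 transcripts per 10000 (lowest, median, highest) in the 13 sections labelled Knockout and 45.6, 80.5 and 102.3 in the 9 Wildtype sections. The groups did not overlap, although the lowest Knockout section (102.8) lay just above the highest Wildtype section (102.3). How often other panel genes have groups as far apart was not counted, so this separation cannot be called unusual. By the test, which is another measure, 9.82% of all genes, and 59% of the 100 with the most transcripts, were called higher. The log2 fold change was 0.93 (SE 0.14, adjusted p = 2.27e-05 in edgeR's test), and it was called within the sections numbered 1 (0.89, adjusted p = 0.0178) and numbered 2 (1.00, adjusted p = 0.000471). Hmgb2 spanned 256.0, 311.6 and 368.3 against 129.5, 213.4 and 258.7, with 12 of 13 sections above the highest Wildtype section (log2 fold change 0.84, SE 0.13, adjusted p = 4.02e-05).

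Pcna spanned 32.6, 42.3 and 56.04 transcripts per 10000 in the sections labelled Knockout and 26.3, 30.3 and 35.5 in Wildtype, with 11 of 13 above the highest Wildtype section (log2 fold change 0.70, SE 0.11, adjusted p = 2.55e-05 in edgeR's test). Top2a spanned 35.8, 42.0 and 54.0 against 24.5, 33.1 and 43.8 (log2 fold change 0.63, SE 0.12, adjusted p = 0.000358). All 13 sections lay above the Wildtype median for each of these genes, with overlapping ranges. Birc5 (0.58, SE 0.13, adjusted p = 0.00180) and Ezh2 (0.35, SE 0.10, adjusted p = 0.0181) had smaller differences: 12 of 13 and 10 of 13 sections lay above the Wildtype median. With the genotype and file name number as a random block in limma, Birc5 was not called (0.47, adjusted p = 0.128), and with library size alone Ezh2 was not (0.08, adjusted p = 0.416).

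Tyms and Mki67, which did not pass, had lower median rates in the sections labelled Knockout than in Wildtype. Tyms spanned 23.8, 57.7 and 76.4 transcripts per 10000 there and 58.1, 79.4 and 92.4 in Wildtype, and Mki67 spanned 15.7, 28.7 and 33.0 against 24.4, 35.1 and 44.3. For both, 0 of 13 sections lay above the Wildtype median and the ranges overlapped. The scaling decides how this is read: library size alone put the median of all 998 genes at -0.30, and then Tyms (-0.42, adjusted p = 0.00684) and Mki67 (-0.26, adjusted p = 0.0353) were called lower, whereas with TMM factors, which put that median at -0.03, neither was. The fitted values of Tyms were 0.12 in the sections numbered 1 and -0.45 in those numbered 2, neither called, while its mean rate was lower in the sections labelled Knockout within both numbers (66.4 against 73.2 and 47.5 against 80.2 transcripts per 10000).

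Of the 19 other cell cycle genes 10 were higher in the sections labelled Knockout, beside the 9.82% of all genes and 39.7% of the top 199 given above. Of the 4 mitotic genes 2 passed the test, Ube2c, a ubiquitin-conjugating enzyme of the anaphase-promoting complex (0.65, adjusted p = 3.00e-05 in edgeR's test), and Nusap1, a spindle protein (0.34, adjusted p = 0.0148). Of the 10 replication and repair genes 5 passed, Parp1 (0.69) with the largest value and Chek1, a checkpoint kinase (0.27), with the smallest. Of the 5 regulators Ccnd1 (0.54), Trp53, the p53 tumor suppressor (0.50), and Myc (0.47) passed, and no gene of the 19 was lower.

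One section labelled Knockout, section 13, stood apart in these genes. It had the lowest rate of all 22 sections for Tyms (23.8), Mki67 (15.7), Birc5 (7.86) and Cenpf (5.604) and the highest for Stmn1 (165.3), Hmgb2 (368.3), Pcna (56.04) and Top2a (54.0). It had the lowest section total (169027 transcripts from 836 cells) and held 6 Cdh5-gated cells, too few to be used in that gate. Without it 7 of the 9 genes were called, Cenpf being the addition (0.28, adjusted p = 0.0419 in edgeR's test), and Birc5 moved to 0.65, Tyms to -0.09 and Mki67 to 0.06.

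Each class of cells was then compared between the embryos on its own, with gate genes left out. Over the 5 classes 21 of 45 gene and class combinations were called, each with a higher fitted value in the sections labelled Knockout. The counts of the 9 genes were 6 in other cells (14.8% of 992 genes called, 10.7% higher), 5 in the Cdh5 gate (6.9% of 841, 6.06% higher), 5 in the Twist1 gate (3.74% of 989, each of them higher), 3 in the hemoglobin gate (4.2% of 666, 3.9% higher) and 2 in the Tagln and Acta2 gate (3.18% of 724, 3.04% higher). Among the 100 genes with the most transcripts the shares called higher were 65%, 41%, 30%, 22% and 18% in the same order. The classes differ in cells and so in precision, so these counts do not rank them.

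**Figure D4:**
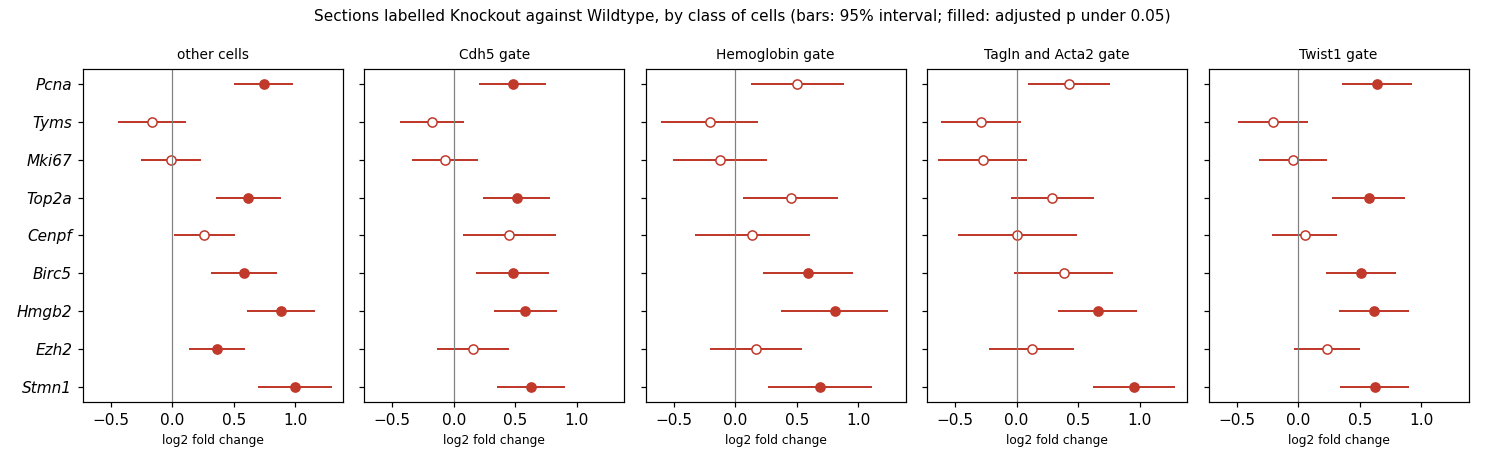
Log2 fold change (x axis) of each gene (y axis) between sections labelled Knockout and Wildtype in each class of cells, with 95% intervals and filled points for an adjusted p under 0.05. Stmn1 and Hmgb2 are filled in each of the 5 classes, and Mki67, Tyms and Cenpf in none.

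Stmn1 and Hmgb2 were called in each of the 5 classes. Stmn1 had log2 fold changes of 1.00 (SE 0.14) in other cells, 0.95 (SE 0.16) in the Tagln and Acta2 gate, 0.69 (SE 0.21) in the hemoglobin gate, 0.63 (SE 0.13) in the Cdh5 gate and 0.62 (SE 0.14) in the Twist1 gate. In the Tagln and Acta2 gate its rate spanned 70.1, 106.4 and 142.7 transcripts per 10000 in sections labelled Knockout and 41.0, 62.1 and 75.4 in Wildtype, with 11 of 13 above the highest Wildtype section. Hmgb2 lay between 0.58 (Cdh5 gate) and 0.89 (other cells). Pcna and Top2a were called in other cells, the Cdh5 gate and the Twist1 gate, Birc5 in these and in the hemoglobin gate (0.59, adjusted p = 0.0385), and Ezh2 in other cells (0.36, adjusted p = 0.0206). The rates of Ezh2 in other cells did not show this rise plainly. Of the 13 sections labelled Knockout, 5 lay above the Wildtype median and 1 above the highest Wildtype section. In the hemoglobin gate, among 22 fits that each left out 1 section, Birc5 was lost in 13 and Stmn1 in 9, with adjusted p up to 0.109 and 0.124. Birc5 was also lost without Wildtype section 19 or 20 in the Cdh5 gate and without Wildtype section 20 in the Twist1 gate, and Ezh2 without Wildtype section 17.

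Whether the difference between a gate and other cells itself differed between the embryos was tested as an interaction. Of 36 gene and gate combinations 1 was called by edgeR (4 at an unadjusted p under 0.05, and 2 called by DESeq2), where 0.504% of 992 genes were called for the Cdh5 and Twist1 gates, 0.605% for the hemoglobin gate and 0.101% for the Tagln and Acta2 gate. The call was Stmn1 in the Twist1 gate: its rate was 128.5 ± 18.3 transcripts per 10000 in the gate and 138.6 ± 19.02 in other cells of the 13 sections labelled Knockout, and 96.2 ± 15.8 and 83.8 ± 18.5 in the 9 Wildtype sections (mean ± SD). The interaction was -0.35 on the log2 scale (SE 0.08, adjusted p = 0.0237), with -0.07 in the sections labelled Knockout alone and 0.27 in Wildtype alone. It was not called with stricter gates (adjusted p = 0.276) or in cells with 200 or more transcripts (adjusted p = 0.0767), nor without Knockout section 9 (adjusted p = 0.0576) or Wildtype sections 15, 18 or 21 (adjusted p from 0.0532 to 0.0653).

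The third question was whether the genes were found in the same cells. For each pair the number of cells with both transcripts was divided by the number that independence would give, with the detection of each gene set within its section and gate and scaled by the depth of the cell. The result is a description without a test, since cells of a section are not replicates. Over all cells the 36 pairs had ratios from 0.957 to 1.04 with a median of 0.985, and 4 of 36 lay above 1, where 70.6% of panel pairs did. In cells with 50 or more transcripts 8 of the 36 lay above 1, with a median of 0.994. Over 491536 pairs of panel genes the median was 1.03, but the highest ratio with any panel gene was 0.987 for Stmn1 and 1.02 for Top2a, so the 36 pairs are not ranked against all panel pairs.

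**Figure D5:**
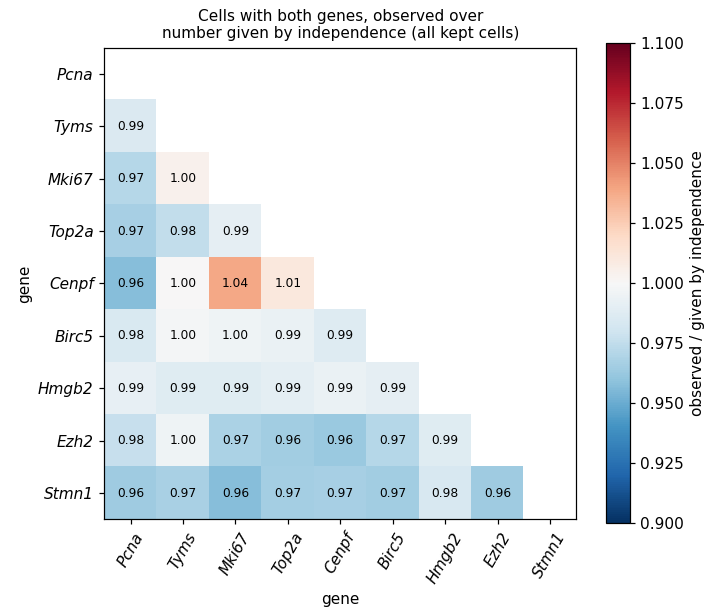
Ratio of observed cells with both genes to the number given by independence, for each pair of the 9 genes over all kept cells, with blue below 1 and red above. Mki67 with Cenpf has the highest ratio (1.04) and Mki67 with Stmn1 the lowest (0.957).

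The pair with the highest ratio joined 2 genes of mitosis, Mki67 and Cenpf, found together in 3494 cells against 3364.6 given by independence. Its ratio over sections was 1.04 ± 0.05 (SD, n = 22 sections), above 1 in 18 of 22, with 1.17 in the Tagln and Acta2 gate, 1.07 in the Cdh5 gate, 1.03 in the Twist1 gate and 0.966 in the hemoglobin gate. Among 991 partners of Mki67, Cenpf came 12th, Top2a 574th and the other 6 genes between 318th and 944th. Among the partners of Top2a, Cenpf came 15th, Birc5 52nd, Mki67 58th, Hmgb2 63rd and the other 4 genes lower, down to 528th. Cenpf with Top2a (1.01) was above 1 in 13 of 22 sections, and Tyms with Mki67 and with Cenpf lay at 1.00. The lowest, Mki67 with Stmn1 (12013 cells against 12548.1), was below 1 in 22 of 22 sections, at 0.956 ± 0.027 (SD, n = 22 sections). Stmn1 had low ratios in general: its median over 991 partners was 0.956, and its pairs with Pcna, Tyms and Hmgb2 were also above 1 in 0 of 22 sections.

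Ratios over the 36 pairs had medians of 1.00 in the Cdh5 gate, 1.00 in the Tagln and Acta2 gate, 0.998 in the Twist1 gate, 0.976 in other cells and 0.964 in the hemoglobin gate. The genes most alike in their co-detection, by the mean log2 ratio with all 9, were Erbb2, Itgb4, Tcf7, Wnt3 and Tnfrsf19, each between 1.01 and 1.02 as a geometric mean over the 9, which is a small likeness in sparse counts. No gene of the 9 was among the 3 panel genes with the highest ratio for another of the 9, except Hmgb2 for Stmn1 at rank 3 (0.984). In other cells of the 22 sections, 95.6% ± 1.7 held a transcript of any of the 9 genes.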

How the data were processed

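The authors deposited transcript counts per segmented cell for 22 sections, with 998 genes in each table. By the study's methods the tissue was fresh frozen and hybridised with a mouse panel, which was followed although the labels name paraffin and a human panel. The limits of the methods on a cell (10 transcripts and 10 genes) were kept, while the cell area limit and the negative probes were not used here. Members and gene lists were chosen with earlier results of these data known.

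Counts were summed per section and class of cells (at least 10 cells) and tested with edgeR 4.0.16 under R 4.3.3 (TMM factors, filterByExpr, robust quasi-likelihood test, Benjamini-Hochberg adjusted p under 0.05), on all genes for the embryos and on the 992 genes that are not gate genes for the gates. Gates were compared with other cells with section as a block. Section totals of 169027 to 887896 transcripts set the precision. Shares of cells were taken after exact thinning to 100 transcripts, which left out 36 (Cdh5), 536 (hemoglobin), 17 (Tagln and Acta2), 108 (Twist1) and 11539 (other) cells. Co-detection rates were set per section and gate so that expected and observed detections of each gene were equal. DESeq2 1.42.0, limma 3.58.1 and Python 3.11.15 (pandas 2.3.3, matplotlib 3.10.9, scipy 1.17.1 and numpy 2.4.6) served the alternatives, cell-level counts and figures. The genes named are the 9, the fixed cell cycle lists, the 3 partners of each gene with the highest ratios and the 5 genes most alike in co-detection. On simulated counts for the comparison of embryos over all cells (998 genes), 97% of changes of 0.5 and 100% of changes of 1 on the log2 scale were called. In the Tagln and Acta2 gate (654 genes) 25.8% and 92.2% were.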

Additional observations from a re-analysis of the deposited data

Results flagged for a closer look

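Wildtype section 14 had 43.14 Top2a transcripts per 10000 in the hemoglobin gate (99 transcripts), where the nearest of the other 8 Wildtype sections had 30.76. Wildtype section 17 had 19.39 Cenpf transcripts per 10000 in the Tagln and Acta2 gate, with 10.18 in the nearest section, on 18 transcripts. Each stood farther from the other sections than Dixon's 95% limit allows. They were 2 of 54 gene and class groups of Wildtype sections examined, and chance alone gives about 1 in 20. Stmn1 was tested for a difference between the embryos in the contrast of the Twist1 gate with other cells, and the interaction was -0.35 on the log2 scale (SE 0.08, adjusted p = 0.0237 in edgeR's test).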

How the results depend on the processing

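Of the 9 genes, 5 were called in the Cdh5 gate, and 1 in cells with 200 or more transcripts (a limit chosen after seeing the data), 3 with stricter gates, 1 in Wildtype sections alone, 6 with gates by priority and 7 with library size alone. The hemoglobin gate had 8 calls, and 5 with library size alone, with stricter gates or in Wildtype sections alone. The Tagln and Acta2 gate went from 6 to 0 in Wildtype sections alone (edgeR, 3 at an unadjusted p under 0.05), and the Twist1 gate from 4 to 7 in cells with 200 or more transcripts. Within classes the 21 calls between embryos became 8 in sections numbered 1 and 13 in those numbered 2, which hold fewer sections. The interaction count of 1 became 0 in cells with 200 or more transcripts (4 at an unadjusted p under 0.05), 0 with stricter gates (5) and 2 with DESeq2. Leaving out 1 section at a time gave 4 to 6 (Cdh5), 7 to 8 (hemoglobin), 6 to 8 (Tagln and Acta2), 3 to 5 (Twist1), 6 to 7 (embryos, all cells), 17 to 21 (within classes) and 0 to 3 (interaction) calls, the interaction giving 2 without Knockout section 2 and 3 without Knockout section 8.

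The signs that turned belong to log2 values not called in the primary setting. Between embryos over all cells, Cenpf turned to -0.028 with library size alone. Mki67 turned to -0.26 with library size alone, -0.030 with the random block and -0.10 in sections numbered 1, and without 1 section at a time it ran from -0.036 to 0.063. Tyms turned to 0.12 in sections numbered 1. In the Cdh5 gate Mki67 turned to -0.0011 with library size alone, and in the Twist1 gate Stmn1 turned to -0.066 in Knockout sections alone. In the hemoglobin gate Tyms turned to 0.0031 with DESeq2, 0.0061 with gate genes kept, 0.016 and 0.0084 in Knockout and Wildtype sections alone and 0.15 with library size alone, and without 1 section at a time it ran from -0.031 to 0.013. In the Tagln and Acta2 gate Tyms turned to -0.042 in cells with 200 or more transcripts, -0.0062 with 50 or more, -0.018 in Knockout sections alone, -0.11 with library size alone and -0.040 with stricter gates, and without 1 section at a time it ran from -0.014 to 0.030. The causes of these changes were not tested, though the settings with fewer cells or sections have less precision. Knockout and Wildtype sections could not be paired, because they came from different embryos and the labels give no matched positions. The gates were compared with other cells within each section.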
